A study of Homo sapiens with 6 samples.

Results

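MYC binding at the genes of the PeBoW complex, PES1, BOP1 and WDR12, was examined in ONS76 cells by ChIP-seq, which sequences the DNA fragments pulled down with an antibody. ONS76 is an established human medulloblastoma cell line. The labels of all libraries give inducible SOX2 as the engineered genotype, whereas the study's methods name the cells ONS76 without a construct. SOX2 was not elevated for this experiment, per the study. The labels give 3 libraries made with the MYC antibody (Y69) and 3 made with normal IgG, a non-specific antibody, from the same line. No peak list of an IgG library was analysed here. According to the study's methods, separate immunoprecipitations from the same chromatin batch were combined, and neither labels nor methods tell whether the replicates were separate cultures, so the SD over replicates measures the spread between libraries. A peak was assigned to a locus when its summit, the position of strongest signal, lay in a fixed hg19 window. The window was chr22:30970000-30998000 for PES1, 5 kb on each side of the BOP1 start at position 145515082 of chromosome 8, and 5 kb on each side of the WDR12 start at position 203776949 of chromosome 2. These windows held 9 of the 59006 peaks in the 3 lists. Each locus had 1 peak in each replicate, and the 9 peaks merged into 3 of 27801 places.

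PeBoW is a nucleolar complex that takes part in maturation of the large ribosomal subunit. PES1 (pescadillo ribosomal biogenesis factor 1) has a BRCT domain and joins the other members through BOP1. BOP1 is a WD-repeat protein that bridges the complex, and WDR12 is a WD-repeat protein with a ubiquitin-like domain. Ribosome assembly genes are a long-known class of MYC targets, and MYC binds DNA together with MAX, preferably at the hexamer called the E-box.

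The promoter windows of RefSeq (GRCh38.p14, from 250 bases before to 50 bases after the annotated start) were read for PES1 and WDR12 only. The window of the remaining member was left out, so its E-box letters were not examined. These 2 windows are shown because they are the ones that were read, although MYC peaks lay at all 3 loci. They differed in E-box letters. Capitals mark matches to the E-box core CANNTG, which reads the same on both strands. The windows lie on the minus strand at chr22:30591861-30592160 and chr2:202911624-202911923. The peaks are in hg19, no position was carried between builds, and the distance from summit to hexamer is therefore not given.
PES1: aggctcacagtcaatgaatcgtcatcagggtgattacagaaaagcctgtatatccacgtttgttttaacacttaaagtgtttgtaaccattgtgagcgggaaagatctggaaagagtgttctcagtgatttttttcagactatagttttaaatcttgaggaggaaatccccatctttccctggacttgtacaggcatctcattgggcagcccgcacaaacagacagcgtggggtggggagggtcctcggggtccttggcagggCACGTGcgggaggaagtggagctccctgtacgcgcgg
WDR12: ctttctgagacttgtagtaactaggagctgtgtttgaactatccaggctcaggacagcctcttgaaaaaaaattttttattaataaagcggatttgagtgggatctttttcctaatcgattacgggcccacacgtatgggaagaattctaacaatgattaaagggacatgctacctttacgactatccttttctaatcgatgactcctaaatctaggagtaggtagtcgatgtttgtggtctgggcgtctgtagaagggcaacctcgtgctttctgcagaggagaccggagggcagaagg
The PES1 window held 1 match, the canonical E-box CACGTG, whose first base is base 14 counted from the annotated start as base 1. The WDR12 window held no match to CANNTG. Among all 35116 promoter windows of this length, 7.26% held CACGTG and 68.7% held CANNTG. Neither window held the variant CACGCG on either strand, which occurred in 11.4% of all windows. These matches describe letters in a fixed window and say nothing about sequence elsewhere under the peaks.

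Across each list, fold enrichment is the ratio MACS2 gave of summit fragments plus 1 to local background plus 1. The local background is the number of fragments that the caller expected at that site without enrichment, and its lowest value in a list was taken as the genome-wide level. This level was 7.79, 5.84 and 4.76 fragments in replicates 1, 2 and 3. The lists held 24899, 16809 and 17298 peaks with a median fold enrichment of 4.15, 4.49 and 4.78. The 95th percentile was 11.7, 11.4 and 12.3, and all 9 peaks at the 3 loci lay above it.

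PES1 had the highest mean fold enrichment of the 3 loci. Its peak reached 18.8-fold, 15.2-fold and 17.0-fold in replicates 1, 2 and 3 (mean 17.0 ± 1.79, SD, n = 3). The summits held 164, 103 and 110 fragments over a local background of 7.79, 5.84 and 5.52, and the deposited −log10 p was 152, 88.8 and 100.3. Replicate 1 was the highest and replicate 2 the lowest in both fold and fragments. By fold the PES1 peak ranked 267, 339 and 307 in the 3 lists. It thus exceeded 98.9%, 98.0% and 98.2% of the peaks in these lists. On chromosome 22 it ranked 1 of 584, 3 of 391 and 4 of 430 peaks, and in none of the replicates was a stronger peak found within 1 Mb. The 3 summits fell within 9 bp, between positions 30987885 and 30987894 (hg19). The median spread was 58.0 bp over the 12499 places found in all 3 replicates. These places had a median fold of 5.40 (geometric mean over replicates), and summit spread was not compared at equal fold. The PES1 peak was 863 bp, 546 bp and 643 bp wide, the narrowest of the loci in every replicate. It was still wider than 79.5%, 63.3% and 71.6% of all peaks. Its summit lay near the middle, with 50.5%, 50.1% and 44.2% of the width at lower coordinates. Of 7 protein-coding start positions that GENCODE lists for PES1 in hg38, 4 lie within 100 bp of the start used for the promoter window, and the most upstream lies 15173 bp from it. Which of them is nearest to the peak was not placed in hg19. The study shows PES1 as an example of a MYC peak at a promoter or transcription start. It also marks E-boxes inside the peaks that it displays.

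BOP1 lies head to head with HSF1, which encodes the main heat shock transcription factor, and the RefSeq starts of both genes are 166 bp apart in GRCh38. A peak at this start therefore cannot be assigned to either gene alone. In replicates 1, 2 and 3 fold enrichment was 13.8, 13.6 and 18.0 (mean 15.1 ± 2.48, SD, n = 3). Replicate 3 stood above the other replicates. The summits held 165, 133 and 130 fragments, the most of the 3 loci in every replicate, although by 1 fragment over PES1 in replicate 1. The local background was also the highest of the loci, at 11.0, 8.87 and 6.28 fragments. The deposited −log10 p was 129.7, 105 and 120.1. By fold the peak ranked 749, 491 and 250 in its lists, above 97.0%, 97.1% and 98.6% of all peaks. By fragments it ranked 590, 228 and 176, above 97.6%, 98.6% and 98.9%.

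The BOP1 peak was also the widest and the least symmetric of the members. It spanned 1896 bp, 1275 bp and 1874 bp, wider than 98.6%, 96.1% and 99.4% of all peaks. The summits spread over 58 bp. They lay 127 bp, 178 bp and 185 bp inside BOP1, and the peak reached 501 bp, 469 bp and 539 bp into the gene. On the other side it extended 1394 bp, 805 bp and 1334 bp beyond the BOP1 start, in the direction of HSF1. This is further than the 166 bp that separate the BOP1 start from the HSF1 start in GRCh38. Only 19.8%, 22.9% and 18.9% of its width lay on the BOP1 side of the summit. The distance from summit to nearer edge, as a share of the width, was at percentiles of 9.90, 16.2 and 10.2 among all peaks. Strong peaks were wider in general. Those with a fold from 12 to 20, a range that holds all 9 member peaks, measured 1022 bp, 894.5 bp and 861 bp at the median, compared with 499 bp, 438 bp and 437 bp over whole lists. Within this range 6.13%, 20.3% and 4.17% were wider than the BOP1 peak of the same replicate, and 5.27%, 11.5% and 5.11% had a summit nearer to an edge. Each list gives 1 summit per peak, so whether the BOP1 peak holds more than 1 binding site was not tested.

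**Figure D1:**
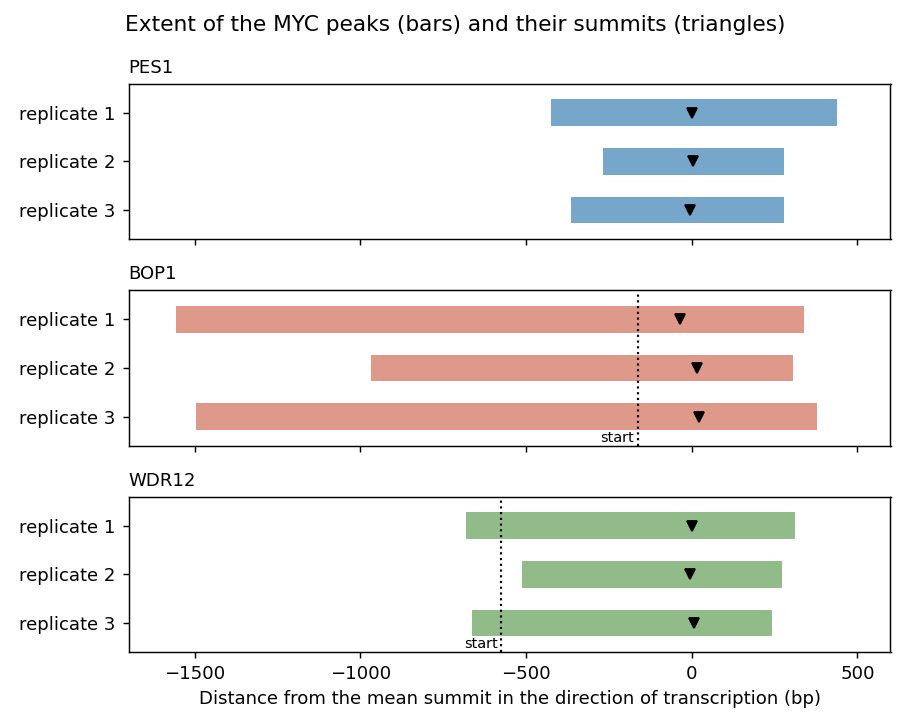
Extent of the MYC peak (bar) and its summit (triangle) in each of 3 replicates at PES1, BOP1 and WDR12. The x axis is the distance in bp from the mean summit of the locus, with positive values in the direction of transcription of the named gene, and the dotted line is the gene start of the window rule, which gives none for PES1. The PES1 summits lie near the middle of their peaks, whereas the BOP1 peaks extend 1394 bp, 805 bp and 1334 bp upstream of the start.

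At WDR12 the 3 replicates gave a fold enrichment of 12.9, 14.03 and 16.0 (mean 14.3 ± 1.56, SD, n = 3). Its summits held 124, 95 and 91 fragments over a local background of 8.69, 5.84 and 4.76, the fewest fragments of the loci in every replicate, and its −log10 p was 95.7, 78.9 and 81.8. By fold it ranked 929, 441 and 382, above 96.3%, 97.4% and 97.8% of all peaks. By fragments it exceeded 94.7%, 95.8% and 96.5%, so in replicate 1 it was just below the 95th percentile by this measure. The summits lay 576 bp, 570 bp and 583 bp inside the gene from the start of the window rule, a spread of 13 bp. In replicates 1 and 3 the peak covered that start and ended 104 bp and 88 bp beyond it, and in replicate 2 it ended inside the gene, 64 bp short of the start. Its width of 991 bp, 785 bp and 908 bp exceeded that of 85.1%, 81.5% and 87.3% of all peaks and of 47.3%, 39.3% and 54.2% of those with a fold from 12 to 20, with 31.3%, 35.5% and 26.0% of the width on the side of the gene body. GENCODE gives 2 protein-coding start positions of WDR12 in hg38, 553 bp apart. CARF, a gene on the opposite strand, has its RefSeq start 602 bp upstream of the WDR12 start in RefSeq and 49 bp upstream of the other GENCODE start. Which of these starts the peak overlies was not placed in hg19, so this peak too cannot be assigned to WDR12 alone.

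**Figure D2:**
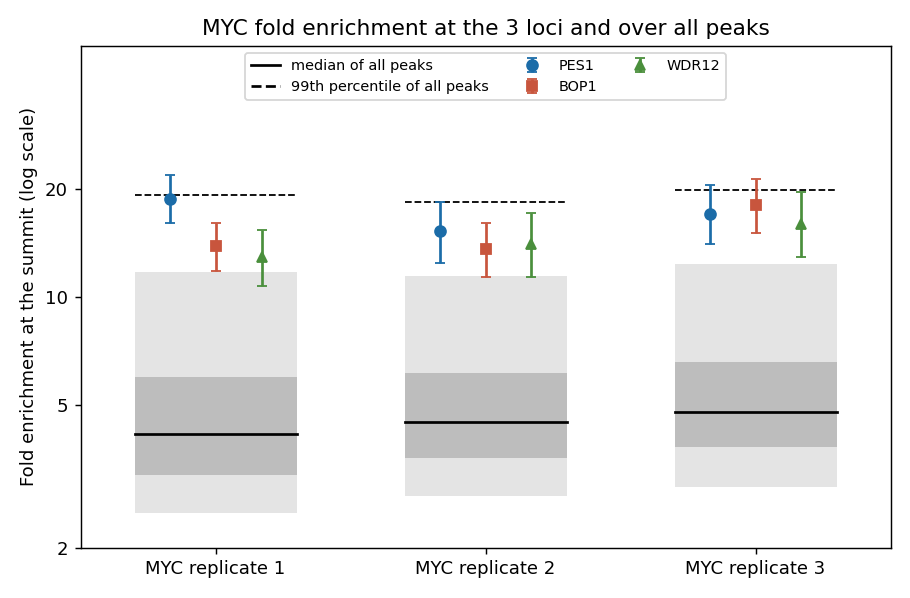
Fold enrichment (y axis, log scale) of the PES1, BOP1 and WDR12 peaks in 3 MYC replicates, with 95% exact Poisson intervals of the summit fragments as error bars. Grey boxes give the 5th to 95th and 25th to 75th percentiles of all peaks, with the median as a line and the 99th percentile as a dashed line. All 9 member peaks, from 12.9 to 18.8, lie between the 95th and the 99th percentile of their list.

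All 3 loci had a peak in 3 of 3 replicates, and at each the 3 peaks formed a single place. The background for this was 45.0% of all places. Counted by peaks, 50.7% of replicate 1, 77.8% of replicate 2 and 75.9% of replicate 3 lay at places found in all 3. Sharing rose with fold enrichment, and every one of the 930, 600 and 743 peaks with a fold from 12 to 20 was at such a place (100%). The sharing of the PeBoW loci was therefore that of all peaks of this strength and is not particular to them. Ranked by the geometric mean of the fold over replicates, PES1 was place 278, BOP1 place 433 and WDR12 place 524 of the 12499 places found in all 3 replicates.

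**Figure D3:**
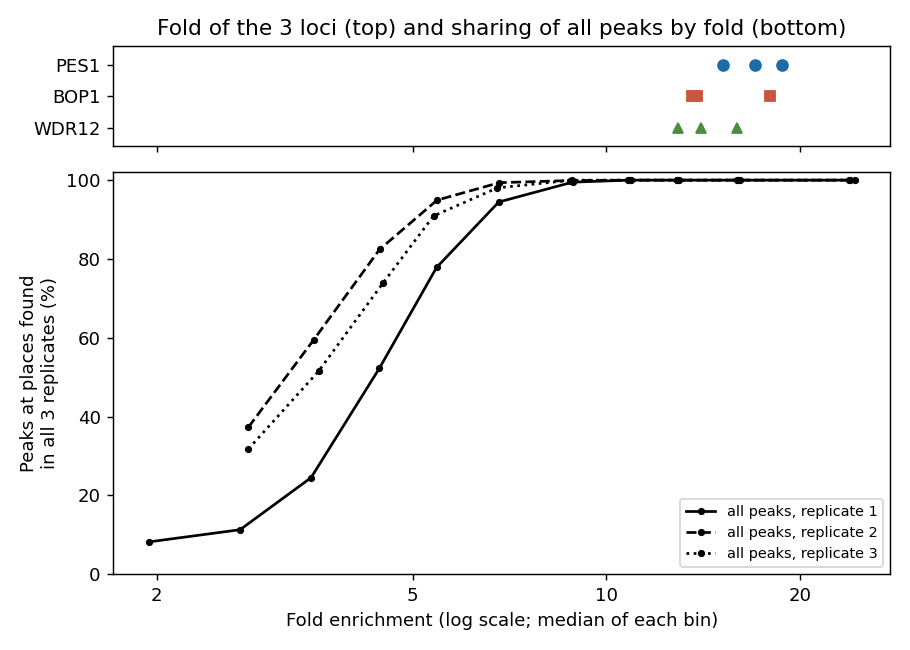
Share of all peaks that lay at places found in all 3 replicates (y axis of the lower panel, %), by fold enrichment (x axis, log scale, median of each bin), for each MYC replicate. Bins with at least 20 peaks are drawn, and the upper panel marks the fold of the 3 loci in each replicate. The 9 marks lie where the curves are at 100%.

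The loci were then compared with each other within each library. The ratio of PES1 to BOP1 in fold enrichment was 1.36, 1.12 and 0.947 in replicates 1, 2 and 3, a mean log2 difference of 0.18 ± 0.26 (SD, n = 3; exact two-sided permutation test over sign flips, p = 0.5, adjusted p = 0.5). PES1 exceeded WDR12 in 3 of 3 replicates, by ratios of 1.46, 1.08 and 1.07 (mean log2 difference 0.25 ± 0.25, SD, n = 3; exact permutation p = 0.25, adjusted p = 0.5). BOP1 to WDR12 gave 1.07, 0.968 and 1.13 (mean log2 difference 0.07 ± 0.11, SD, n = 3; exact permutation p = 0.5, adjusted p = 0.5). The p-values were adjusted by Benjamini-Hochberg over the 3 pairs, and 3 replicates cannot give a p below 0.25. Replicate 1 carried much of the lead of PES1, and without it the mean log2 difference was 0.04 over BOP1 and 0.10 over WDR12. The 95% exact Poisson intervals of the fold overlapped in 8 of 9 comparisons between loci, the exception being PES1 (16.0 to 21.9) against WDR12 (10.8 to 15.4) in replicate 1, and in 9 of 9 comparisons between replicates of one locus. These intervals cover counting error of the summit fragments only.

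The order of PES1 and BOP1 depended on the denominator. With the lowest, genome-wide background as denominator, the summit fragments gave ratios of 21.1, 17.6 and 23.1 at PES1, 21.2, 22.8 and 27.3 at BOP1 and 15.9, 16.3 and 19.1 at WDR12. On this scale BOP1 was the highest in 3 of 3 replicates, and PES1 to BOP1 had a mean log2 difference of -0.21 ± 0.18 (SD, n = 3; exact permutation p = 0.25, adjusted p = 0.25). In replicate 1 they differed by 1 fragment. BOP1 exceeded WDR12 by ratios of 1.33, 1.40 and 1.43, the most even difference of the 3 pairs (mean log2 difference 0.47 ± 0.05, SD, n = 3; exact permutation p = 0.25, adjusted p = 0.25). WDR12 was the lowest of the loci in 3 of 3 replicates on the genome-wide scale, and in 2 of 3 by fold enrichment.

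**Figure D4:**
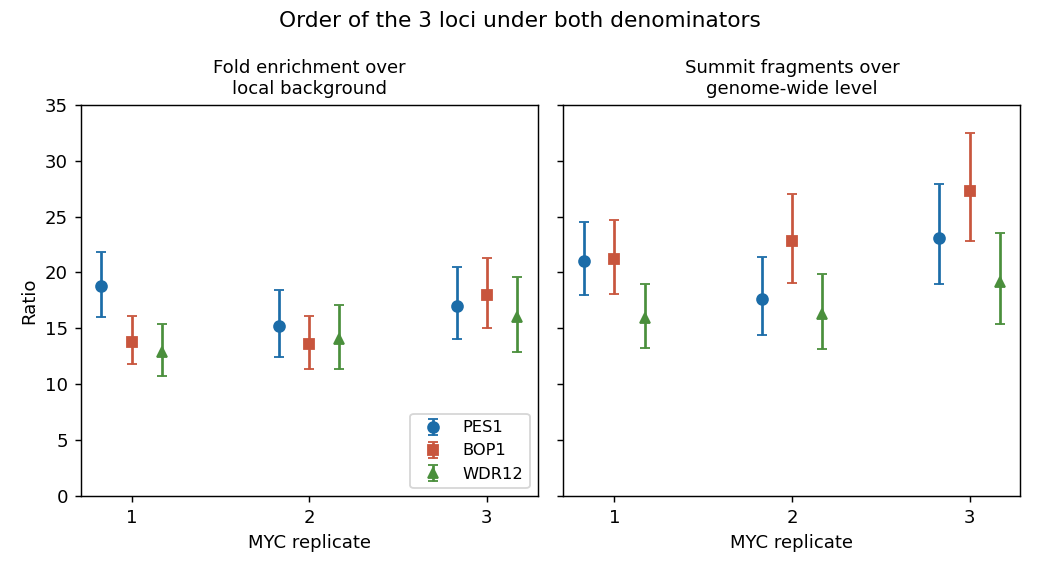
Fold enrichment over the local background (left) and summit fragments over the genome-wide level of the list (right) at the 3 loci in each MYC replicate. The y axis is a ratio that starts at 0, and error bars are 95% exact Poisson intervals of the fragments. PES1 is above BOP1 in replicates 1 and 2 on the left, and BOP1 is the highest in all 3 replicates on the right.

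The local background itself separated BOP1 from the other loci. Relative to the genome-wide level it was 1.41, 1.52 and 1.32 at BOP1 (mean 1.42 ± 0.0986, SD, n = 3), against 1.00, 1.00 and 1.16 at PES1 (mean 1.05 ± 0.0921, SD, n = 3) and 1.12, 1.00 and 1.00 at WDR12 (mean 1.04 ± 0.0667, SD, n = 3). BOP1 was thus higher than both in every replicate, with no overlap of values. The median over all peaks was 1.16, 1.05 and 1.06, and the background at BOP1 lay at percentiles of 71.8, 88.2 and 76.7 among all peaks. The other peaks within 1 Mb of BOP1 had a median of 1.53, 1.28 and 1.31, and none of these 85, 72 and 83 peaks was at the genome-wide level. In the whole lists 28.9%, 40.4% and 40.0% of peaks were at that level. Over the other peaks of chromosome 8 the median was 1.36, 1.22 and 1.23. Around PES1 and WDR12 the medians within 1 Mb and over the chromosome were 1.00 in each replicate. The raised background at BOP1 was therefore shared by its neighbourhood.

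**Figure D5:**
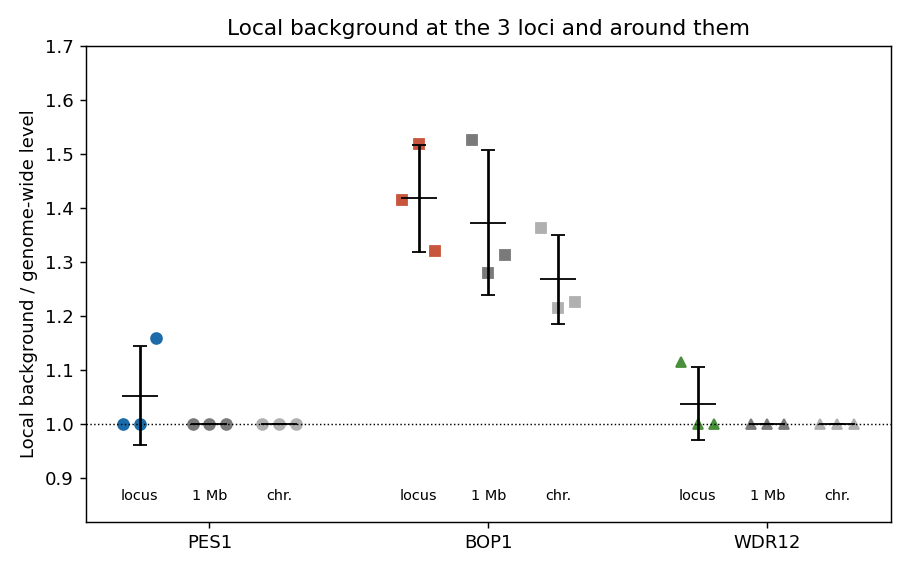
Ratio of the local to the genome-wide background level (y axis, starting below 1 and not at 0) for the peak at each locus, the median of the other peaks within 1 Mb and the median of the other peaks of the chromosome. Points are the 3 MYC replicates, and black marks are the mean and SD. At BOP1 the locus, its 1 Mb neighbourhood and its chromosome lie above 1.2, while the medians around PES1 and WDR12 lie at 1.00.

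The replicates did not rank the loci alike by fold. PES1 was the highest in replicates 1 and 2 and BOP1 in replicate 3, and WDR12 was the lowest in replicates 1 and 3 and BOP1 in replicate 2. At places found in all 3 replicates the median ratio of fold in replicate 1 to replicate 3 was 1.05, with 5% of places below 0.686. The ratio was 1.10 at PES1, 0.768 at BOP1 and 0.808 at WDR12, at percentiles of 57.2, 10.7 and 14.8. For replicate 1 to replicate 2 the median was 1.14, and the members had 1.24, 1.02 and 0.919. For replicate 2 to replicate 3 it was 0.926, against 0.892, 0.755 and 0.878. All 9 ratios lay between the 5th and 95th percentiles of all places. The coefficient of variation of the fold over replicates was 10.5% at PES1, 16.4% at BOP1 and 10.9% at WDR12, against a median of 15.0% over these places. Most of these places were weaker than the members, with a median fold of 5.40 (geometric mean over replicates). Neither the ratios nor the coefficients were compared at equal fold.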

How the data were processed

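MYC ChIP-seq peaks of 3 ONS76 libraries were analysed, 1 list per library. The authors mapped reads with Bowtie2 (hg19) and called peaks in each library with MACS2 at a q-value of 0.05. Versions, duplicate handling and the control: not given in the sources used here. Deposited values of a peak were a fold enrichment (a ratio at the summit), a −log10 p-value, a −log10 q-value and a score, which the authors' caller derived from the q-value and which was not used. The lists give no read totals.

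From these files, summit fragments and local background were recovered as the whole number of fragments whose Poisson −log10 p-value matched the deposited one within 0.001, which succeeded for 100% of peaks. The recovery was tested on simulated data. Places were made by merging peaks that shared 1 bp or more, and those in at least 2 replicates form the study's consensus. Percentiles give the share of peaks in a list with a lower value. Values are means ± SD over replicates. Pairs of loci were compared by an exact permutation test (sign flips over 3 replicates). Intervals are 95% exact Poisson intervals and, like the precision of each value, rest on the fragments at the summit. Python 3.11.15, SciPy 1.17.1 and matplotlib 3.10.9 were used. Coordinates count from 1. The members, windows and lists were chosen with earlier results of these data known. The named genes are the 3 members, HSF1 at the shared start and a neighbouring gene from the reference table. Another 10 large-subunit assembly factors (NIP7, FTSJ3, DDX27, PPAN, EBNA1BP2, MAK16, RPF1, NSA2, RRP1 and MDN1) were listed but not placed, because the annotation used here is of hg38. Alternatives covered thresholds, windows, overlap rules, denominators and each replicate left out.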

Additional observations from a re-analysis of the deposited data

How the results depend on the processing

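Each locus kept 1 peak per replicate under q-values of at most 0.01 and 0.001 and equal numbers of peaks. It also did so with narrower and wider windows and any overlap with the window. The peaks of each locus stayed shared by 3 replicates under both other overlap rules, the stricter q-value and equal numbers of peaks. All member peaks had a deposited −log10 q from 74.4 to 147.4 and ranked near the top of their lists by fold and p-value. The q-value cuts and equal numbers of peaks therefore could not remove them or change their sharing. The mean log2 difference of PES1 over BOP1 in fold reversed from 0.18 to -0.21 over the genome-wide level, which by construction removes the higher local background at BOP1. The difference of PES1 over WDR12 kept its direction in all 5 alternatives, and that of BOP1 over WDR12 likewise. Since PES1 exceeded WDR12 in 3 of 3 replicates, leaving one out could not reverse that difference. With one replicate left out, PES1 over BOP1 ranged from 0.04 (without replicate 1) to 0.30, PES1 over WDR12 from 0.10 (without replicate 1) to 0.33 and BOP1 over WDR12 from 0.03 (without replicate 3) to 0.13. With nothing added, mean fold was 19.5 at PES1 and 16.6 at WDR12. Over the genome-wide level it was 20.6 at PES1, 23.8 at BOP1 and 17.1 at WDR12. Mean percentiles were 98.4, 97.5 and 97.1 for PES1, BOP1 and WDR12. Among peaks at places found in all 3 replicates they were 97.6, 96.1 and 95.4. PES1 was at 99.3 among peaks of its chromosome, and at 97.4 by summit fragments, where WDR12 was at 95.7. Summit fragments over the genome-wide level, an alternative added after the data were seen, rank peaks of a list identically (97.4 and 95.7). Of 105 alternative values, 91 moved by less than the spread between replicates or kept their direction. This count includes the q-value and equal-number settings that could not remove these peaks. It also includes averages over all peaks of a locus, where each locus had only 1 peak per replicate. Differences between loci were judged by direction alone. BOP1 over WDR12 is thus counted here although it rose from 0.07 to 0.47 over the genome-wide level. With 91 to 165 fragments at a summit, counting error was of the same order as the differences between loci.

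No paired analysis was possible because pairing MYC with IgG libraries by replicate number needs values from both, and only MYC peak lists were analysed here. The loci were compared within each MYC library.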

Other observations

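The surroundings of the 3 loci differed in how densely MYC peaks were called. Within 1 Mb there were 45, 31 and 31 other peaks around PES1 in replicates 1, 2 and 3, 85, 72 and 83 around BOP1, and 15, 7 and 11 around WDR12. The nearest place found in at least 2 replicates lay 42755 bp from the PES1 place, 19476 bp from the BOP1 place and 39521 bp from the WDR12 place, against a median of 18837 bp over the 17350 such places.

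Near BOP1, 3 peaks within 1 Mb were stronger in each replicate. The strongest had a fold enrichment of 31.5, 28.8 and 33.9 on 386, 236 and 230 fragments, with its summit 219 kb from that of BOP1 at higher coordinates, and covered positions 145733470 to 145735375 of chromosome 8 in replicate 1 (hg19). Near WDR12 the strongest other peak lay 645.5 to 645.6 kb away at lower coordinates, with 15.8, 16.7 and 14.8, above WDR12 in replicates 1 and 2 and below it in replicate 3. These neighbours were singled out after their values were seen, and no gene is named for them because the available annotation is in hg38.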
